A study of Mus musculus with 3 samples.

Results

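The genes described here are 10 ligands and receptors through which an antigen-presenting cell tells a T cell, or a phagocyte tells its neighbour, to respond or to hold back: Cd40, Cd80, Cd86, Cd274 (PD-L1), Pdcd1lg2 (PD-L2), Icosl, Cd276 (B7-H3), Lgals9 (galectin-9), Havcr2 (TIM-3) and Cd47. They were taken by gene symbol and all 10 were found, among 55536 annotated genes, together with their 41 annotated transcripts. They were measured in chromatin-bound total RNA, depleted of ribosomal RNA, from C57BL/6J bone marrow-derived macrophages, which are primary cells grown out of marrow. There were 3 libraries, all of 1 condition. The cells had been exposed to 100 ng/ml Lipid A, the Toll-like receptor 4 agonist of bacterial lipopolysaccharide, for 12 h, kept without it for 12 h, and then given 100 ng/ml once more for 120 min. No untreated, singly stimulated or cytoplasmic sample was analysed here, so every value is a level after the repeated stimulus and none is a response to it. The labels call the libraries separate biological replicates but list 1 donor entry for all 3 and give neither age nor sex, so the SDs measure a spread between samples that may be technical.

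T cells need a second signal beside the antigen receptor. B7-family ligands on the presenting cell give it: CD80 and CD86 engage CD28 to stimulate, or CTLA-4 to restrain, ICOS ligand engages ICOS, and PD-L1 and PD-L2 engage PD-1 to restrain. CD40 works in the other direction, receiving CD40 ligand from the T cell and raising the capacity of the presenting cell to stimulate. In macrophages, CD40, CD80 and CD86 are classical activation markers, galectin-9 is a secreted lectin with TIM-3 among its receptors, and CD47 is the widespread signal that restrains phagocytosis through SIRP-alpha. RNA on chromatin is enriched in transcripts that are still being made or not yet released, so a level here is not an amount of protein on the cell surface.

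Replicate 1 was the shallowest library, with 10293545 expected counts, against 17820066 in replicate 2 and 17548564 in replicate 3. The RNA inputs were 1 µg, 250 ng and 500 ng in replicates 1, 2 and 3, so depth and input differ with the library and cannot be told apart from it. All 8 macrophage markers were expressed, meaning a TPM (a relative abundance per transcript length) of at least 1 in all 3 libraries, with summed TPM between 1003.55 and 1529.23. Of 38 markers of other cell types, 6 were expressed (Cd22, Cd28, Cd4, Cd5, Kdr and Vwf) and 9 had no count in any library. The endothelial list was the highest of these, with 2 of 4 markers expressed. Its summed TPM was 31.65, 16.09 and 24.44 in replicates 1, 2 and 3, of which Vwf held 22.37, 10.09 and 14.51. None of the 8 dendritic cell markers was expressed and their summed TPM lay between 2.23 and 2.57. The read-based values described below put 8 of the 38 above the threshold, among them the T-cell gene Cd3d at 14.5, 14.6 and 13.3 TPM, which had 0, 1 and 0 alignment-based counts, and the dendritic cell gene Zbtb46 at 1.61, 2.23 and 2.80 TPM. Pecam1, an endothelial gene, stood at 4.10, 9.82 and 9.68 read-based TPM. The share of other cell types in the levels below was not tested otherwise.

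The set split into genes with clear transcripts and genes near the limit of detection. Of the 10 genes, 7 were expressed, where 42.0% of 22028 protein-coding genes and 21.7% of all annotated genes passed the same rule. In order of mean TPM these were Cd40, Cd274, Cd47, Lgals9, Icosl, Cd86 and Cd80, while Havcr2, Pdcd1lg2 and Cd276 fell below the threshold in every library. The first 6 exceeded the median expressed protein-coding gene in all 3 libraries, as did 18.5% of protein-coding genes, or 44.0% of the expressed ones. Cd80 missed this narrowly, at 13.91 TPM in replicate 2 against 13.92 TPM for that median gene. The median of log2(TPM + 0.1) over all 10 genes was 5.23 ± 0.34 (SD, n = 3), and over the 7 expressed genes 5.62 ± 0.18, beside 3.58 ± 0.24 for expressed protein-coding genes and -1.04 ± 0.09 for all protein-coding genes.

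**Figure D1:**
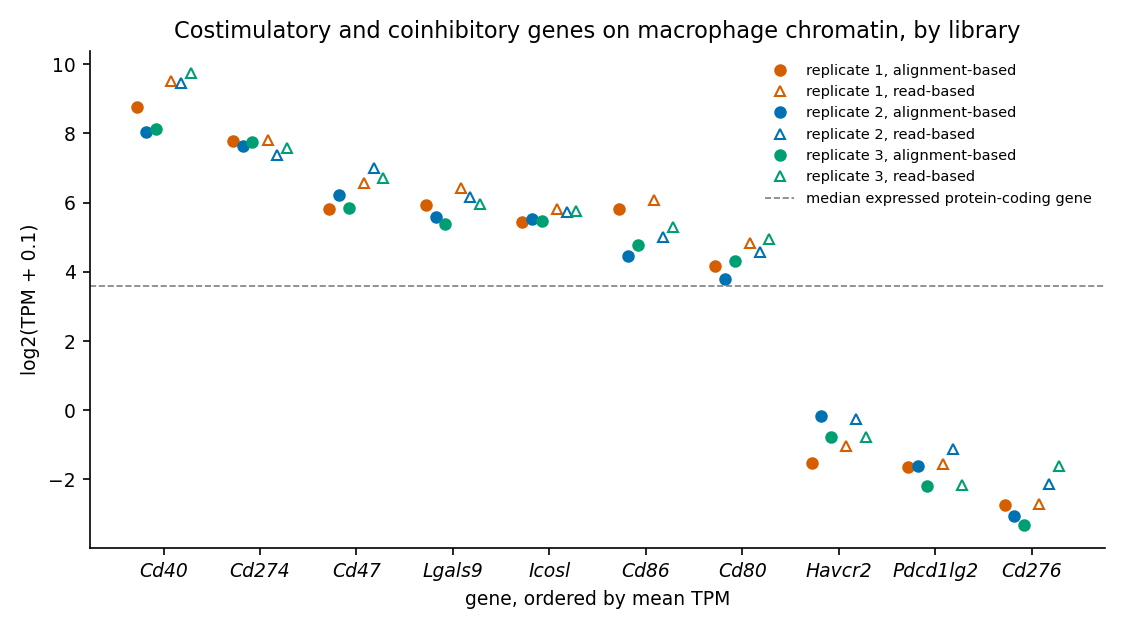
Level of each of the 10 genes as log2(TPM + 0.1) in each of the 3 libraries, by alignment-based (filled circles) and read-based (open triangles) quantification, with the mean level of the median expressed protein-coding gene as a dashed line. In both quantifications 7 genes lie above the line in mean level and Havcr2, Pdcd1lg2 and Cd276 far below it, in the same order.

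The files hold a second quantification of the same reads, made without an alignment, and the order of all 10 mean levels was the same in it. Between neighbours in that order, the alignment-based library values overlapped in 3 of 9 pairs: Cd47 with Lgals9, Lgals9 with Icosl, and Icosl with Cd86. By those values these neighbours could not be ranked beyond their spread, while Cd47 lay above Icosl in every library with no overlap. Read-based values overlapped for Icosl with Cd86 and for Pdcd1lg2 with Cd276. There the lowest Cd47 value, 94.2 TPM, exceeded the highest of Lgals9, 85.8 TPM. Likewise the lowest Lgals9 value, 61.8 TPM, exceeded the highest of Icosl, 56.8 TPM. Read-based means were higher for 9 of the 10 genes and lower for Cd274. In 3 of the 7 expressed genes (Cd40, Cd80 and Cd47) the read-based TPM was at least 1.5 times the alignment-based one in every library, a property shared by 24.6% of expressed protein-coding genes.

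Cd40 was the highest of the 10 genes. It encodes the TNF-receptor-family member that receives CD40 ligand and lies at chr2:165055627-165072948 on the plus strand (mm10, as are all gene positions here). Its level was 434.88, 262.36 and 280.57 TPM in replicates 1, 2 and 3, from 3691, 3643 and 4699 counts. Replicate 1 stood above the other libraries, which lay close together. The mean of 326 ± 94.8 TPM (SD, n = 3) exceeded that of the median expressed protein-coding gene 27.2 times, and Cd40 ranked between the 98.4th and 99.4th percentile of expressed protein-coding genes. Read-based values were 726.89, 704.35 and 853.75 TPM, among which replicate 1 no longer stood apart.

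Most of the difference between libraries in Cd40 was assigned to a single short annotated transcript. Cd40-205 is an annotated retained-intron isoform of 545 bases and 4 exons, which runs past the end of exon 6 into the following intron and stops there. It is told apart from the spliced isoforms at that end by the bases below, where capitals mark the last 20 bases of exon 6 and lower case the 131 intron bases that follow (chr2:165066545-165066695, plus strand, from the GENCODE M21 transcript). The intron bases are shown because reads there set this isoform apart from the spliced ones. Unspliced Cd40 RNA would give reads there too, so the isoform and unspliced RNA cannot be told apart by them. The same limit holds for the retained-intron isoforms of Icosl and Lgals9 below.

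Cd40-205 end: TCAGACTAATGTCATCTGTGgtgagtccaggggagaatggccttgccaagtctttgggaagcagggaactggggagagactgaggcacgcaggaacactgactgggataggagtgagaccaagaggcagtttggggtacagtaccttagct

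Cd40-205 stood at 268.46, 101.58 and 99.76 TPM in replicates 1, 2 and 3. Replicate 1 was high and the other libraries nearly equal. It took 35.3% of Cd40 counts in replicate 1 (Wilson 95% interval 33.7 to 36.8%), 12.6% in replicate 2 (11.5 to 13.7%) and 10.8% in replicate 3 (9.91 to 11.7%), intervals that cover counting error only. The mean share of 19.5% ± 13.6 thus rested on replicate 1 and was 11.7% without it. That mean lay at the 34.7th percentile of 5967 expressed protein-coding genes with a retained-intron isoform, below their median share of 31.2%. The read-based mean of 24.1% lay at the 37.7th percentile, also below the median. Read-based shares were closer together, at 26.9%, 23.0% and 22.4%. With Cd40-205 left out, an alternative chosen after seeing the data, Cd40 stood at 166.42, 160.78 and 180.81 TPM, a mean of 169 ± 10.3 with replicate 1 between the others.

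**Figure D2:**
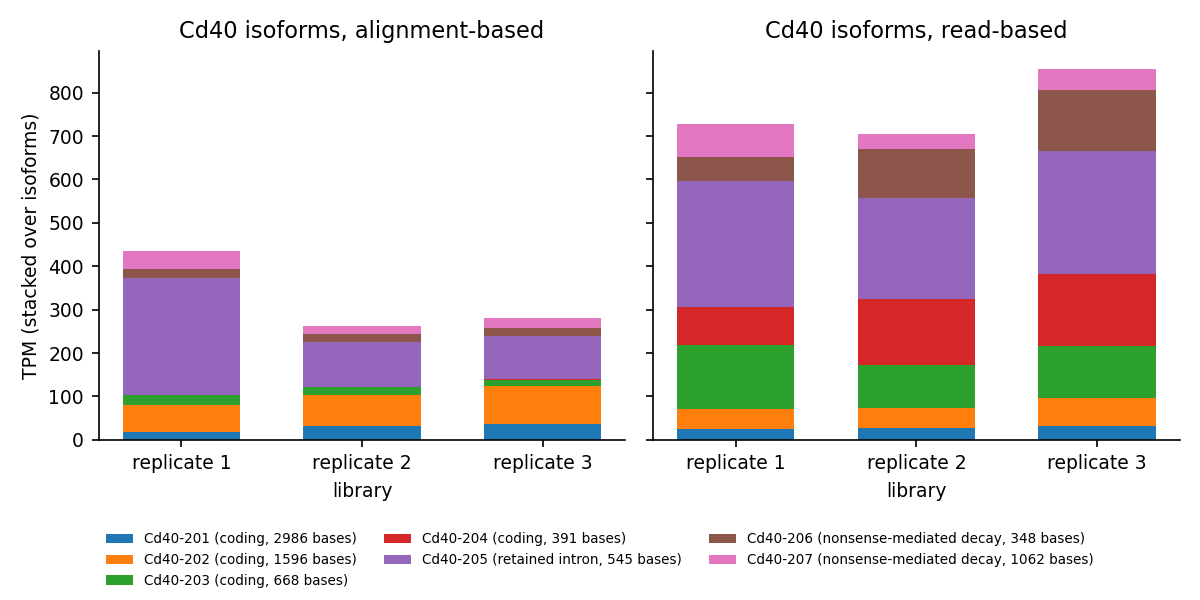
TPM of the 7 annotated Cd40 isoforms, stacked, in each library, by alignment-based (left) and read-based (right) quantification. In the alignment-based bars the 545-base retained-intron isoform Cd40-205 reaches 268.46 TPM in replicate 1 and about 100 TPM in the other libraries, and the read-based bars add short coding and decay-annotated isoforms in all 3.

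The long coding isoforms behaved differently from the short ones between quantifications. Cd40-201 (2986 bases) and Cd40-202 (1596 bases) together held the largest part of the alignment-based counts, with mean shares of 29.6% ± 10.7 and 38.1% ± 7.35. Read-based shares of these isoforms were 20.1% ± 3.41 and 18.2% ± 2.77. Cd40-207, annotated for nonsense-mediated decay, held 8.38% ± 3.36. Cd40-204, a 391-base coding isoform, was at 0.89, 0 and 0.42 TPM by alignment but at 86.15, 151.37 and 165.56 TPM in the read-based values. Because TPM divides by length, such short isoforms raise the summed level of the gene, and its level therefore depends on how reads were assigned among isoforms.

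Both ligands of CD28 and CTLA-4 were expressed. Cd86 (B7-2, chr16:36603869-36666081, minus strand) stood at 56.2, 22.06 and 27.3 TPM in replicates 1, 2 and 3, a mean of 35.2 ± 18.4 from 901, 471 and 696 counts. Cd80 (B7-1, chr16:38455561-38496335, plus strand) stood at 17.95, 13.91 and 19.98 TPM, a mean of 17.3 ± 3.09 from 443, 394 and 648 counts. Cd86 was high in replicate 1 only, whereas no library stood apart for Cd80, and the ranges of both genes did not overlap. Within each library Cd86 was higher, by 1.64, 0.66 and 0.45 on the log2(TPM + 0.1) scale. The mean difference was 0.92 ± 0.64, or 1.89-fold, and 0.55 ± 0.15 without replicate 1. An exact two-sided sign-flip permutation test over the libraries gave p = 0.25, adjusted 0.25 over 5 such pairs, and 0.25 is the smallest value that 3 libraries allow for any pair.

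The Cd86 total summed isoforms annotated as coding and as noncoding. All lie within the span of the gene, and whether unspliced or coding Cd86 RNA gave reads assigned to the noncoding ones was not tested. The only coding isoform of Cd86, Cd86-201, stood at 20.24, 10.21 and 13.57 TPM, a mean of 14.7 ± 5.11. The other isoforms, all annotated as processed transcripts, summed to 35.96, 11.85 and 13.73 TPM. Replicate 1 was high in both fractions, and more so in the noncoding one. By counts, the coding isoform held 65.8% in replicate 1 (Wilson 62.7 to 68.8%), 76.9% in replicate 2 (72.8 to 80.4%) and 76.7% in replicate 3 (73.4 to 79.7%). Cd86-203, a 975-base transcript of 2 exons, held the largest noncoding share, 22.6% ± 5.30 of counts and 30.3% ± 0.07 in the read-based counts. By alignment, the coding isoform of Cd86 alone was above the summed Cd80 level in replicate 1 and below it in the other libraries. These means of 14.7 and 17.3 TPM differed by less than the SD of Cd86-201. Read-based values put Cd86-201 at 22.95, 9.32 and 12.27 TPM, below summed Cd80 at 28.15, 23.55 and 30.87 TPM in every library. The higher level of Cd86 thus held for the gene total and not for the reads assigned to its coding isoform.

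Cd80 counts were shared by a pair of coding isoforms with different starts. Cd80-202 (3173 bases) begins at chr16:38455561 and took 249, 194 and 323 counts, while Cd80-201 (1701 bases) begins at chr16:38458933 and took 182, 192 and 319 counts. Their shares, 51.7% ± 3.89 and 46.3% ± 4.58, overlapped between libraries. Read-based counts favoured Cd80-202, at 68.7% ± 10.1.

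Icosl, the ligand of ICOS (chr10:78069302-78083913, plus strand), was the steadiest of the expressed genes in TPM. It stood at 43.23, 45.64 and 44.12 TPM in replicates 1, 2 and 3, a mean of 44.3 ± 1.22 from 1130, 1492 and 1622 counts. No library stood apart. Yet most of its counts were assigned to isoforms annotated with a retained intron, Icosl-202 and Icosl-204. These held 73.0% in replicate 1 (Wilson 70.3 to 75.5%), 58.8% in replicate 2 (56.3 to 61.3%) and 55.8% in replicate 3 (53.3 to 58.1%). Replicate 1 was again the highest. The mean of 62.5% ± 9.24 lay at the 81.3rd percentile of 5967 expressed protein-coding genes that have such an isoform, whose median share was 31.2%. The read-based share was 72.6% ± 3.31, at the 89.0th percentile. The full-length coding isoform Icosl-201 stood at 9.11, 15.43 and 16.28 TPM, lowest in replicate 1.

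**Figure D3:**
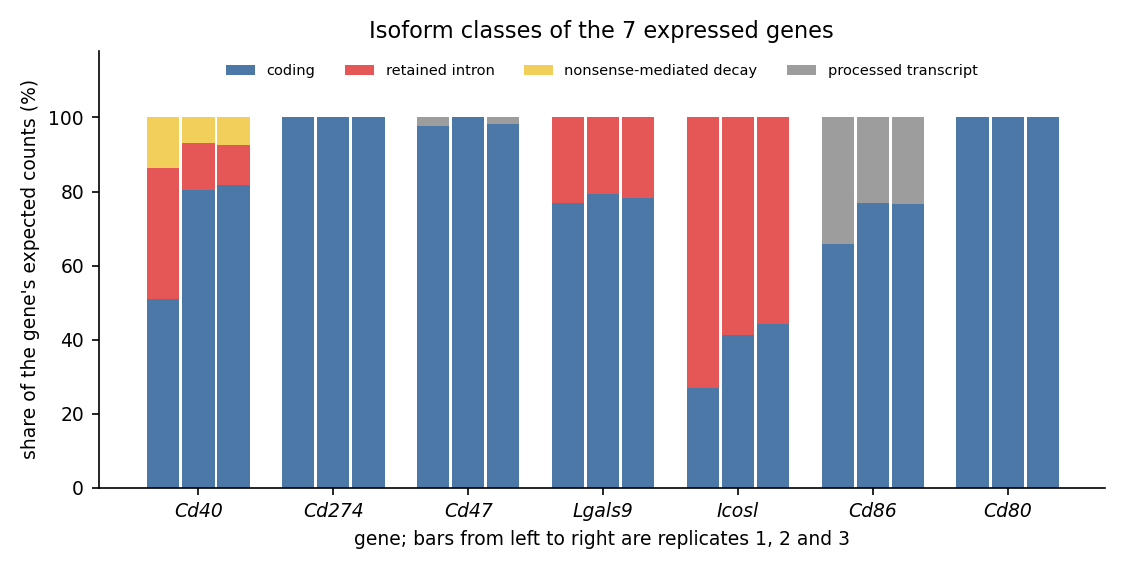
Share of each gene's expected counts (%) on isoforms of each annotated class, for the 7 expressed genes, with bars for replicates 1, 2 and 3 from left to right. Cd274 and Cd80 are wholly or almost wholly coding, and Icosl has 62.5% on retained-intron isoforms on average. Cd40, Cd86, Icosl, Lgals9 and Cd47 all have their lowest coding share in replicate 1, by little for Lgals9 and Cd47.

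Among the ligands of PD-1, Cd274 was abundant and Pdcd1lg2 close to absent. Cd274 stood at 220.34, 197.8 and 216.48 TPM in replicates 1, 2 and 3, a mean of 212 ± 12.1 from 9380, 10357 and 12550 counts. It varied little between libraries and ranked between the 97.4th and 98.3rd percentile of expressed protein-coding genes. It has 1 annotated isoform, Cd274-201 of 3622 bases, so no assignment among isoforms enters its level. Pdcd1lg2 stood at 0.22, 0.23 and 0.12 TPM, from 4, 5 and 3 counts. The ratio of their TPM was 1002 in replicate 1 (interval from the exact Poisson limits of the Pdcd1lg2 counts, 391 to 3676), 860.0 in replicate 2 (369 to 2649) and 1804 in replicate 3 (617 to 8748). On the log2(TPM + 0.1) scale, which understates differences to low genes, Cd274 was higher by 9.53 ± 0.37 in 3 of 3 libraries (exact sign-flip permutation test, p = 0.25, adjusted 0.25).

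These genes are neighbours on chromosome 19. Cd274 lies at chr19:29367455-29388095 and Pdcd1lg2 at chr19:29410919-29471161, both on the plus strand with 22824 bases between them. Low Pdcd1lg2 stood between active genes: Ric1, the next protein-coding gene after it, was at 176 ± 24.8 TPM, and Plgrkt, on the opposite strand 65 bases before Cd274, at 149 ± 10.1 TPM. An antisense gene that overlaps the end of Pdcd1lg2, A930007I19Rik, was at 2.84 ± 0.66 TPM.

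Within Cd274 the annotation places an antisense gene, AC119228.1, which was also abundant. It had 7782, 8421 and 10081 counts, which was 0.830, 0.813 and 0.803 of the Cd274 counts in replicates 1, 2 and 3 (0.839, 0.723 and 0.729 of them in the read-based values), and its level was 157 ± 6.52 TPM. Nearly all of it was AC119228.1-202, a transcript of 4469 bases, of which 396 bases (8.86%) coincide with Cd274 exons while the gene lies within the span of Cd274. Those 396 bases are 10.9% of the Cd274 exonic length. No source used here says whether counting used strand. Reads from unspliced Cd274 RNA and from an antisense transcript thus cannot be told apart, and the level of AC119228.1 is uncertain.

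**Figure D4:**
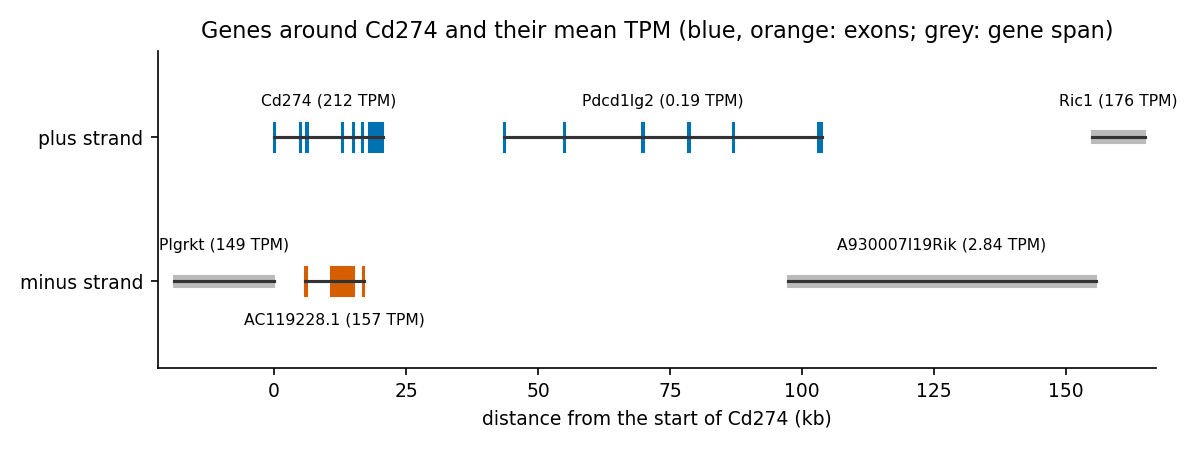
Annotated genes around Cd274 by strand, placed by distance from the start of Cd274 in kb, with the mean TPM over 3 libraries beside each name; exons are drawn for Cd274, Pdcd1lg2 and AC119228.1, gene spans in grey for the others, and Ric1 continues past the right edge. Pdcd1lg2 at 0.19 TPM lies between Cd274 at 212 TPM and Ric1 at 176 TPM.

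Promoter windows from RefSeq (GRCm38.p6, 250 bases before the start to 50 after it) were present for 8 of the 10 genes, and those of the PD-1 ligands are shown because levels differed so widely between them. They were searched on both strands for the kappaB consensus, the interferon-stimulated response element (each by its consensus) and the interferon-gamma-activated site TTCNNNGAA. These patterns occur in 8.46%, 3.44% and 8.30% of 32851 RefSeq promoters of this length. Capitals mark a match, and positions count from the start base as 0.

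Cd274 promoter, chr19:29367188-29367487, plus strand: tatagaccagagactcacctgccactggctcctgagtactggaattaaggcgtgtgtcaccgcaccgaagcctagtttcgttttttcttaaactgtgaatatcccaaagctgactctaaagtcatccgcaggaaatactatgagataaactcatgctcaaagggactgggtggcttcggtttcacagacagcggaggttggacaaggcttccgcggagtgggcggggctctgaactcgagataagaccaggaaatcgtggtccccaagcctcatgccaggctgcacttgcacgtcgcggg

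Pdcd1lg2 promoter, chr19:29410669-29410968, plus strand: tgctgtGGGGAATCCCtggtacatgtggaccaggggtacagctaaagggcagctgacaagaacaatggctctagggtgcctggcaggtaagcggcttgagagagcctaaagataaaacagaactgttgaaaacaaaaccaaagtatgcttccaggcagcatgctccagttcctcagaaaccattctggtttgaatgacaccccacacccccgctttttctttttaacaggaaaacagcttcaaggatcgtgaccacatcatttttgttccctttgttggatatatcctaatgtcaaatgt

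No pattern matched in the window of the abundant Cd274, while the window of the scarce Pdcd1lg2 held a kappaB match from -244 to -235, where both strands fitted the consensus. Icosl had a kappaB match from -111 to -102. No pattern matched in the windows of Cd80, Cd276, Havcr2 or Cd47. A match describes letters and not a bound site, and its absence from this window says nothing of the factor.

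Galectin-9 was expressed and its receptor TIM-3 was not. Lgals9 (chr11:78962974-78984946, minus strand) stood at 61.26, 47.66 and 41.92 TPM in replicates 1, 2 and 3, a mean of 50.3 ± 9.93 from 792, 705 and 681 counts. Havcr2 (chr11:46454935-46481255, plus strand) stood at 0.25, 0.79 and 0.49 TPM, a mean of 0.51 ± 0.27 from 8, 29 and 21 counts, of which 18 in replicate 2 fell on Havcr2-202 and the others on Havcr2-201. Lgals9 was highest and Havcr2 lowest in replicate 1. The within-library difference was 6.45 ± 0.89 on the log2(TPM + 0.1) scale, or 87.5-fold, in 3 of 3 libraries (exact sign-flip permutation test, p = 0.25, adjusted 0.25).

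Galectin-9 consists of a pair of carbohydrate-recognition domains joined by a linker whose length differs between splice forms. Lgals9-202 was the main isoform, with 565, 547 and 485 counts or 73.4% ± 3.61. Lgals9-203, which differs by an additional exon of 93 bases, took 45, 13 and 47 counts, and Lgals9-201 took 0 in each library. The exon that the main isoform lacks is shown in capitals (chr11:78969714-78969806, minus strand, exon 5 of Lgals9-203), with 15 bases of the spliced transcript on each side in lower case.

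Lgals9-203 exon: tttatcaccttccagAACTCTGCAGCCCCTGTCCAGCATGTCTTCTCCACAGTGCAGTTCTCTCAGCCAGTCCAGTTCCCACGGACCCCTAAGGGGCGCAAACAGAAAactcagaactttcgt

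The skipped form was therefore the prevailing one in every library, and read-based shares were similar, 77.0% ± 1.20 for Lgals9-202 and 1.46% ± 1.17 for Lgals9-203. The retained-intron isoform Lgals9-204 held 21.8% ± 1.21 of counts, at the 38.0th percentile of the 5967 genes. The Lgals9 promoter window held matches to the interferon-stimulated response element on the opposite strand at -55 to -46 and 15 to 24, the only matches to that pattern among the 8 genes, and is shown for that reason with the matches in capitals.

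Lgals9 promoter, chr11:78984875-78985174, minus strand: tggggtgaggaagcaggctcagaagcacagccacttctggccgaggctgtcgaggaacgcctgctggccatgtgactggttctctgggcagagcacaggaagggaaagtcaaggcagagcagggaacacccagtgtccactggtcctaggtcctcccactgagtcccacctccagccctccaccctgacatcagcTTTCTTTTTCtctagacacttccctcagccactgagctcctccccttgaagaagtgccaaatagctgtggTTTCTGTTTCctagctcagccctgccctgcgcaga

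Cd276, which encodes B7-H3 (chr9:58524298-58555437, minus strand), was at the limit of detection. It had 2, 1 and 0 counts in replicates 1, 2 and 3, listed as 0.05, 0.02 and 0 TPM. The 0 in replicate 3 allows a share of up to 1.7e-05% of that library's counts (3 counts of the total, counting error only), for alignment-based counts. Read-based counts were 3, 10 and 9. Its neighbour at higher coordinates, Nptn, was at 97.3 ± 29.6 TPM.

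Cd47 (chr16:49800533-49915010, plus strand) was the third highest of the 10 genes. It stood at 55.79, 74.52 and 57.23 TPM in replicates 1, 2 and 3, a mean of 62.5 ± 10.4 from 1611, 3005 and 2553 counts. Replicate 2 was the highest, unlike the pattern of Cd40 and Cd86. Its receptor on myeloid cells, Sirpa, stood at 810.75, 778.82 and 458.36 TPM, far above it in every library. On the log2(TPM + 0.1) scale Cd47 minus Sirpa was -3.41 ± 0.43, so Sirpa was 10.7-fold higher in 3 of 3 libraries (exact sign-flip permutation test, p = 0.25, adjusted 0.25). Sirpa belongs to a family of similar genes among which reads may be split, which was not tested.

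Of the 10 annotated Cd47 isoforms, Cd47-201 (5250 bases) led with 75.7% ± 2.25 of counts. Assignment among the rest was unstable. Cd47-207 took 0, 567 and 513 counts by alignment and 0 read-based counts in all 3 libraries. Cd47-208 took 236, 79 and 31 counts, and Cd47-204 took 152, 14 and 0. Cd47-210, a processed transcript, held 1.36% ± 1.22 of alignment-based and 20.1% ± 1.80 of read-based counts. The share of Cd47-201 moved as well, to 51.6% ± 0.58 of read-based counts, though it led in both quantifications.

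Replicate error differed widely among the genes. On CPM, depth-scaled counts, with TMM normalisation, the SD of log2(CPM + 0.5) over libraries could be computed for 9 of the 10 genes, those with at least 10 counts in all, and Cd276 was not among them. Cd86 had the largest SD, 0.86, at the 96.6th percentile of 17110 genes tested, and Cd47 the smallest, 0.088, at the 8.28th percentile. Between them lay Lgals9 (0.54), Cd80 (0.50), Cd40 (0.40), Havcr2 (0.38), Cd274 (0.32), Pdcd1lg2 (0.19) and Icosl (0.19). The CPM of Pdcd1lg2 was 0.39, 0.28 and 0.18 in replicates 1, 2 and 3. These lie below the added 0.5, which shrinks its SD, so its small value does not show low replicate error. The median over the 9 genes was 0.38, beside 0.29 for all genes tested and 0.24 for expressed protein-coding genes. It was 0.22 without replicate 1, 0.23 without replicate 2 and 0.55 without replicate 3. In 2 of the 7 expressed genes, Cd40 and Cd86, replicate 1 had at least 1.5 times the TPM of both other libraries, which held for 3.20% of expressed protein-coding genes.

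The receptors that a T cell would bring to these ligands were nearly undetected. Of Cd28, Ctla4, Pdcd1, Icos and Cd40lg, only Cd28 was expressed, at 1.49, 1.4 and 1.0 TPM, and in the read-based values, where it stood at 0.89 TPM in replicate 3, none was. Icos stood at 0, 0.24 and 0.1 TPM. Ctla4, Pdcd1 and Cd40lg had 0 counts in each library in both quantifications, which by the alignment-based totals allows shares of up to 2.9e-05% in replicate 1 and 1.7e-05% in the others.

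Genes that act downstream of CD40 were expressed throughout. All 10 of the listed genes passed, beside 42.0% of protein-coding genes, with a median log2(TPM + 0.1) of 5.16 ± 0.30. Of these, 9 had more TPM in each library than the median expressed protein-coding gene, as did 44.0% of expressed protein-coding genes. Traf1, a signalling adaptor of TNF-receptor-family members, stood at 288.27, 306.78 and 277.15 TPM, near the alignment-based mean of Cd40, 326 TPM. In the read-based values Traf1 stood at 312, 290 and 265 TPM, below Cd40 in every library. Birc3, a ubiquitin ligase in the same complexes, was at 211 ± 16.8 TPM, and Nfkb2, the precursor of the noncanonical NF-kappaB subunit p52, at 147 ± 10.7 TPM. Map3k14, the kinase of that noncanonical arm, was the lowest at 6.66 ± 2.11 TPM.

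The interferon-gamma receptor arm, a textbook inducer of Cd274, was also expressed in full together with the partners of PD-L1 protein. All 8 genes passed, beside 42.0% of protein-coding genes, with a median of 5.14 ± 0.19 on the same scale. Irf1, a transcription factor that interferon induces, stood at 401.34, 208.86 and 259.69 TPM, highest in replicate 1. Jak2, a receptor-associated kinase, was at 117 ± 7.78 TPM. Cmtm4, a partner of PD-L1, was the lowest at 2.20 ± 0.33 TPM.

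Expression was mixed among TNF-family ligands and other checkpoint genes. Of 10 TNF-family costimulatory ligands, 4 were expressed, a share close to the 42.0% of all protein-coding genes, led by Tnfsf15 (33.2 ± 6.73 TPM), Tnfsf9, the 4-1BB ligand (30.3 ± 12.1 TPM), and Tnfsf10, known as TRAIL (3.09 ± 0.66 TPM). Cd70, the ligand of CD27, had 0 alignment-based counts in every library. Of 24 further genes of checkpoint pathways, mostly of the immunoglobulin and lectin families, 15 were expressed, beside the same 42.0%. Of these 15, 8 had more TPM in each library than the median expressed protein-coding gene, as did 44.0% of expressed protein-coding genes. After Sirpa, the highest were Tnfrsf14, known as HVEM, at 192 ± 73.8 TPM, and Lgals3, galectin-3, at 80.1 ± 27.5 TPM. Read-based values put 18 of the 24 above the threshold. Btn1a1, Btn2a2, Nectin3 and Tigit had 0 alignment-based counts in every library, but Tigit stood at 7.66, 5.76 and 5.88 and Nectin3 at 0.52, 1.76 and 1.70 read-based TPM. Levels of Cd40 and Cd274 exceeded those of every TNF-family ligand on the list in every library.

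**Figure D5:**
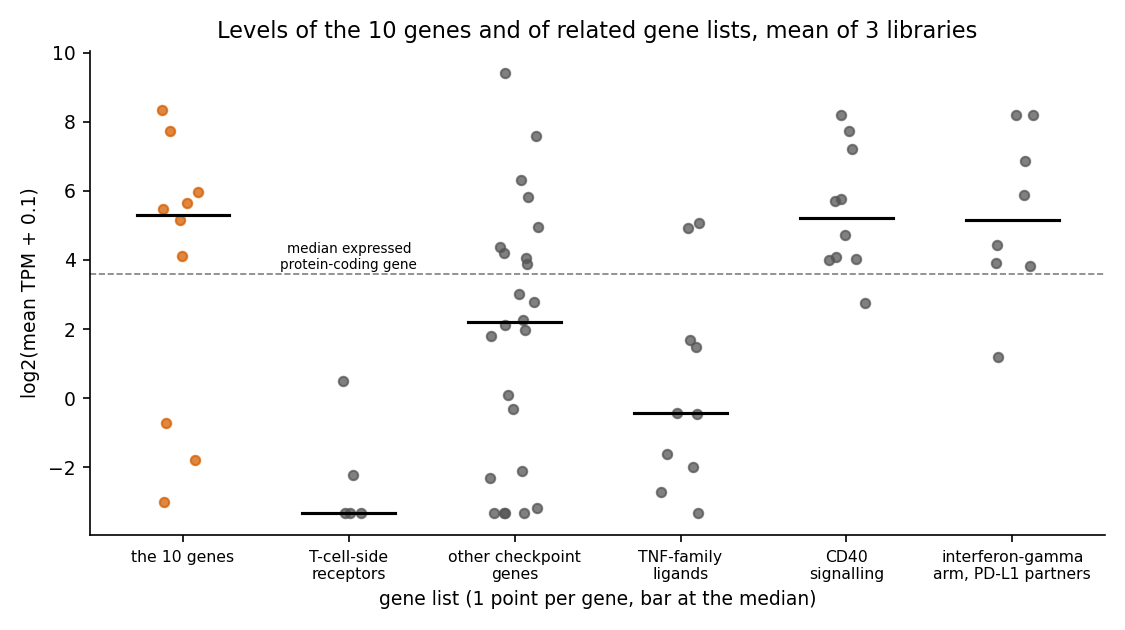
Mean level over 3 libraries as log2(mean TPM + 0.1), 1 point per gene, for the 10 genes and 5 related gene lists, with a bar at each list's median and a dashed line at the median expressed protein-coding gene. The T-cell-side receptors lie at or near the bottom, and all CD40 signalling genes but Map3k14 lie above the dashed line.

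The leading costimulatory receptor and the leading coinhibitory ligand were finally set against each other. On the log2(TPM + 0.1) scale Cd274 minus Cd40 was -0.98, -0.41 and -0.37 in replicates 1, 2 and 3, a mean of -0.59 ± 0.34, with Cd40 higher in 3 of 3 libraries (exact sign-flip permutation test, p = 0.25, adjusted 0.25). Without replicate 1 the mean was -0.39. Read-based values gave -1.98 ± 0.25. With the retained-intron isoform Cd40-205 left out of Cd40, the difference turned to 0.32 ± 0.075 with Cd274 higher in 3 of 3 libraries. In the read-based values the same omission, also added after seeing the data, left Cd40 higher in 3 of 3 libraries, with a difference of -1.35 ± 0.33. The order thus turned in the alignment-based values and not in the read-based ones.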

How the data were processed

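Chromatin-fraction total RNA was measured in 3 libraries of 1 condition, with a size range of 250 to 400 per the labels. The authors deposited, per library, gene and transcript tables holding expected counts and TPM in RSEM's columns, plus a transcript table holding estimated counts and TPM in kallisto's columns, per the file headers. Per the deposited notes, the build is mm10 with GENCODE M21. No source used here gives program versions or strand use. TPM sums to a fixed total per library, so abundant short RNAs lower all other values. The 26345 gene entries without annotation were left out of gene counts.

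The second table was summed per gene (read-based). Expressed genes had a TPM of 1 or more in each library. Levels were compared as log2(TPM + 0.1). Rounded expected counts went through edgeR 4.0.16 (TMM, at least 10 counts over all libraries together) for log2(CPM + 0.5) SDs, with DESeq2 1.42.0 size factors as an alternative. The SDs with TMM were checked on simulated data, and the DESeq2 alternative was not. Pairs of genes were tested with an exact sign-flip test. Total counts set the precision, and 3 counts was the floor for a 0. The 10 genes, the 5 gene lists and the 8 marker lists were chosen with earlier results of these data known. Beside the 10 genes, the text names the 3 highest and the lowest gene of each list by mean TPM, Sirpa, overlapping and nearest genes, and isoforms holding at least 10% of a gene's counts in any library. Cd40-204, Cd47-204, Cd47-210, Lgals9-201 and Lgals9-203 were named after their values were seen, for contrast. A gene that this rule picks is not reported here.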

Additional observations from a re-analysis of the deposited data

How the results depend on the processing

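Of 60 alternative values for the counts, list median, pairs and SD, 56 kept their direction and, for counts, medians and SD, stayed within the limits set for a move, 3 moved and 1 reversed. These limits were 1.5-fold for counts, 0.34 (the SD between libraries) for the median level, and 0.18 for the replicate SD. The 0.18 is itself the spread of the values that leave out a replicate, so staying within it says little about them. Sizes of pair differences still changed: Cd274 minus Cd40 went from -0.59 to -1.98 with read-based TPM. The median level of the 10 genes, 5.23, became 5.62 with read-based TPM, 6.56 with TPM rescaled over annotated genes of effective length of at least 200 bases without mitochondrial genes, and 3.66 as a mean over genes. Cd274 minus Cd40 reversed to 0.32 when Cd40-205 was left out of the alignment-based values, but was -1.35 when it was left out of the read-based values, both added after seeing the data. Leaving out each replicate gave 7 expressed genes each time, a median level from 5.04 to 5.35, Cd86 minus Cd80 from 0.55 to 1.15, and a median replicate SD from 0.22 to 0.55. The rescaled TPM raised all 10 levels. Without a count filter, the SD of Cd276 enters and the median is 0.33. Among 113 alternatives for single levels and isoform shares, 28 moved. Levels and shares are never negative, so no reversal was possible for them. No contrast between conditions was possible because all 3 libraries belong to 1 group. With 3 libraries no pair test could go below 0.25. Depth limits Pdcd1lg2 and Cd276, which had at most 5 counts per library.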
